A study of Mus musculus with 54 samples.

Results

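Aortas of C3H/HeJ (C3H) mice fed a high-fat diet for 40 weeks were compared with aortas of C3H mice fed the same diet for 4 weeks. The members were the 3 arrays whose titles give C3H, high-fat diet and week 40 and the 3 arrays whose titles give C3H, high-fat diet and week 4, which is 6 of the 54 arrays of the series. C3H aortas after 8 and 24 weeks on that diet, with 3 arrays each, were used as points in between. Week 8 follows the titles, and the source field of the same arrays gives week 10. C3H aortas after 40 and 4 weeks on normal chow, and C57Bl/6 (C57) aortas after 40 and 4 weeks on high-fat diet, with 3 arrays in each group, were set beside them. The C3H chow arrays of weeks 0, 8 and 24, also 3 in each group, gave the chow course of single features. Those of week 0 also served for a list of changes on chow. Each array hybridised total RNA of aorta together with total RNA of mouse embryo as the second channel. The labels name no allele, sex or agent other than the diet, and they leave unsaid whether each array holds its own animal or a pool. P-values therefore set a difference of group means against the spread of arrays within groups. That spread is pooled over the groups fitted and may be technical alone.

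The aorta is built of an endothelial lining, layers of smooth muscle between elastic sheets and an outer coat of connective tissue and fat. A high-fat diet raises plasma lipoproteins, and in susceptible mice lipid-laden macrophages then gather below the endothelium as the fatty streaks of early atherosclerosis. C57Bl/6 mice are known as a susceptible strain and C3H/HeJ mice as a resistant one, so the comparison follows the vessel wall of the resistant strain through a long exposure to the diet. In whole tissue, fewer cells of a type and less RNA per cell cannot be told apart.

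Values are log ratios in the units of the deposited table, where log10 is the likely base only, because the deposited values stop at exactly 2 and -2. A positive difference means a higher deposited ratio at week 40 than at week 4. The direction of the ratio is not given in the sources used here, and if it ran embryo over aorta every sign below would turn together. Features are given by number, since the gene names that the platform annotation lists were not borne out by the values: 953 pairs of features that share a symbol correlated at -0.00367 in their mean ratio and at -0.0712 in the difference between week 40 and week 4. The labelled tissue could therefore not be checked against marker genes, and no gene sequence is shown. The 6 arrays held 110 to 221 exact zeros each, which were treated as not measured. Across features, the SD of the log ratio was 0.292 to 0.302 on the week 40 arrays. On the week 4 arrays it was 0.306 on array 1, 0.197 on array 2 and 0.269 on array 3, against a median of 0.267 over the 54 arrays, so week 4 array 2 had the narrowest spread of the 6.

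Over the 36 weeks, 17 of 21179 tested features passed an adjusted p of 0.05 in limma, 16 of them higher at week 40 and 1 lower. These are 0.0803% of the tested features, 0.0755% higher and 0.00472% lower. The titles number the arrays of every group 1 to 3, and arrays of equal number varied together. With that number as a block in the fit, 184 features passed (0.869%), 102 higher (0.482%) and 82 lower (0.387%), and all 17 were among them. Of the 17, feature 14436, which was higher, and feature 1087, which was lower, are described before the rest. They lay apart from the other 15 in a layout read from the feature numbers, given below. The array layout itself is not given, and by number alone 1087 lies among the other 15. Of 21053 features measured on all 6 arrays, 681 (3.23%) had every week 40 array above every week 4 array and 795 (3.78%) had every week 40 array below. With so few arrays such separation also arises by ordering alone, so these counts are a description. With the arrays scaled to one spread 0 higher and 1 lower feature passed, or 4 and 6 with the block. These included 0 of the 17, or 3 of them with the block. With quantile normalization 3 higher and 2 lower passed, or 8 and 11 with the block. Here 2 of the 17 were included, or 4 of them with the block.

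Feature 14436 had log ratios of 0.33, 0.38 and 0.34 on week 40 arrays 1 to 3, against 0.061, 0.050 and 0.014 on the week 4 arrays. All 3 week 40 arrays lay above all 3 week 4 arrays, and each group spanned less than 0.1. The means were 0.35 ± 0.0251 at week 40 and 0.042 ± 0.025 at week 4 (SD, n = 3 each), a difference of 0.31 (SE 0.0529) with a limma adjusted p of 0.00659, or 0.000159 with the block. The ratio would be 2.03-fold higher if the base is 10. At weeks 8 and 24 the feature averaged 0.14 and 0.16, both between the ends. On chow it had -0.048, 0.22 and 0.12 at week 40 and 0.017, 0.11 and 0.092 at week 4, so the chow arrays overlapped, with a difference of 0.027 (limma adjusted p = 1). In C57 on high-fat diet it had 0.0040, 0.069 and 0.12 at week 40 and 0.17, 0.069 and 0.20 at week 4, with the groups overlapping and the mean at week 40 the lower. Feature 14436 stayed called in 26 of its 31 alternative fits. Its difference was 0.23 with the arrays scaled to one spread and 0.23 with quantile normalization, where it passed with the block alone (adjusted p = 0.0225 and 0.0147), and it missed without week 4 array 1 (0.0530) or array 2 (0.0739). It also missed when only the 6 arrays of the comparison were fitted, where 0 features passed in limma and 771 had an unadjusted p under 0.05.

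Feature 1087 had -1.36, -1.46 and -1.32 on week 40 arrays 1 to 3, against -0.89, -0.81 and -1.02 on the week 4 arrays. Every week 40 array was below every week 4 array. The difference was -0.48 (SE 0.0817), with a limma adjusted p of 0.00659, or 0.000159 with the block. Almost all of it was in place by week 8, when the 3 arrays had -1.39, -1.38 and -1.30, and at week 24 they had -1.23, -1.40 and -1.34. The feature stood at -1.36, -1.32 and -1.38 on average at weeks 8, 24 and 40. On chow it averaged -0.77 at week 0 and then -1.14, -1.13, -1.19 and -1.28 at weeks 4, 8, 24 and 40. The level of the high-fat arrays at week 4 was thus nearer to the chow level at week 0 than to the chow level at week 4. Feature 1087 stayed called in 21 of 29 alternative fits. With the arrays scaled to one spread the difference was -0.13 and did not pass in either fit. With quantile normalization it was -0.45 (limma adjusted p = 0.614, with the block 0.0940). The call was also lost without week 40 array 2 (0.0535), week 4 array 1 (0.0616) or week 4 array 2 (0.112), and with only the 6 arrays of the comparison.

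The other 15 called features were all higher at week 40, and on 13 of them array 3 was the lowest week 40 array. The median difference over these 15 was 0.88 between arrays numbered 1, 0.58 between arrays numbered 2 and 0.16 between arrays numbered 3, where 13 of 15 were positive. Feature 583 had 0.92, 0.63 and 0.48 on week 40 arrays 1 to 3, against -0.37, -0.023 and -0.13 on the week 4 arrays, a difference of 0.85 (SE 0.136, limma adjusted p = 0.00439, with the block 0.000955). Its groups did not overlap, and array 1 was the highest at week 40. With the arrays scaled to one spread the difference was 0.67 and passed with the block alone (adjusted p = 0.0308). The call was also lost without week 40 array 1 (0.0530), without week 4 array 1 (0.0616) and with only the 6 arrays of the comparison. Feature 183 had 1.38, 0.67 and 0.41 at week 40 and -0.086, 0.091 and -0.040 at week 4, a difference of 0.83 (limma adjusted p = 0.0378). Feature 799 had 1.48, 0.80 and 0.30 at week 40 and 0.14, -0.018 and -0.0094 at week 4, a difference of 0.83 (limma adjusted p = 0.0378). In both, array 1 was far above array 3 at week 40 while the week 4 arrays lay close together. Feature 180 had 0.84, 0.49 and 0.082 at week 40 and -0.21, -0.13 and -0.18 at week 4, a difference of 0.65 (limma adjusted p = 0.0317). Its week 40 array 3 was above the week 4 arrays by less than 0.3.

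Features 2083 and 4009 had the same shape. Feature 2083 had 0.84, 0.86 and 0.22 at week 40 and -0.080, 0.023 and 0.11 at week 4, and feature 4009 had 0.82, 0.68 and 0.18 at week 40 and -0.14, 0.014 and 0.021 at week 4. Array 1 of both was already raised at week 24, at 0.71 and 0.55, while arrays 2 and 3 were not above 0.14. Features 822, 400, 1652, 361 and 1866 rose by 0.44, 0.43, 0.39, 0.37 and 0.30 (limma adjusted p of 0.0347, 0.0379, 0.0229, 0.0318 and 0.0317). The week 40 and week 4 arrays of feature 1866 did not overlap, with 0.071, 0.18 and 0.036 at week 40 and -0.18, -0.14 and -0.30 at week 4. Features 2727, 3797, 4686 and 2319 complete the list, with differences of 0.65, 0.38, 0.30 and 0.23 (limma adjusted p of 0.0379, 0.0318, 0.0318 and 0.0386). Array 3 of features 2727 and 3797 was slightly lower at week 40 than at week 4. Among the called features other than 14436 and 1087, feature 400 passed in the fewest alternative fits, 11 of 27. Feature 583 passed in the most, 23 of 27, and feature 1866 came next, at 18 of 27.

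**Figure D1:**
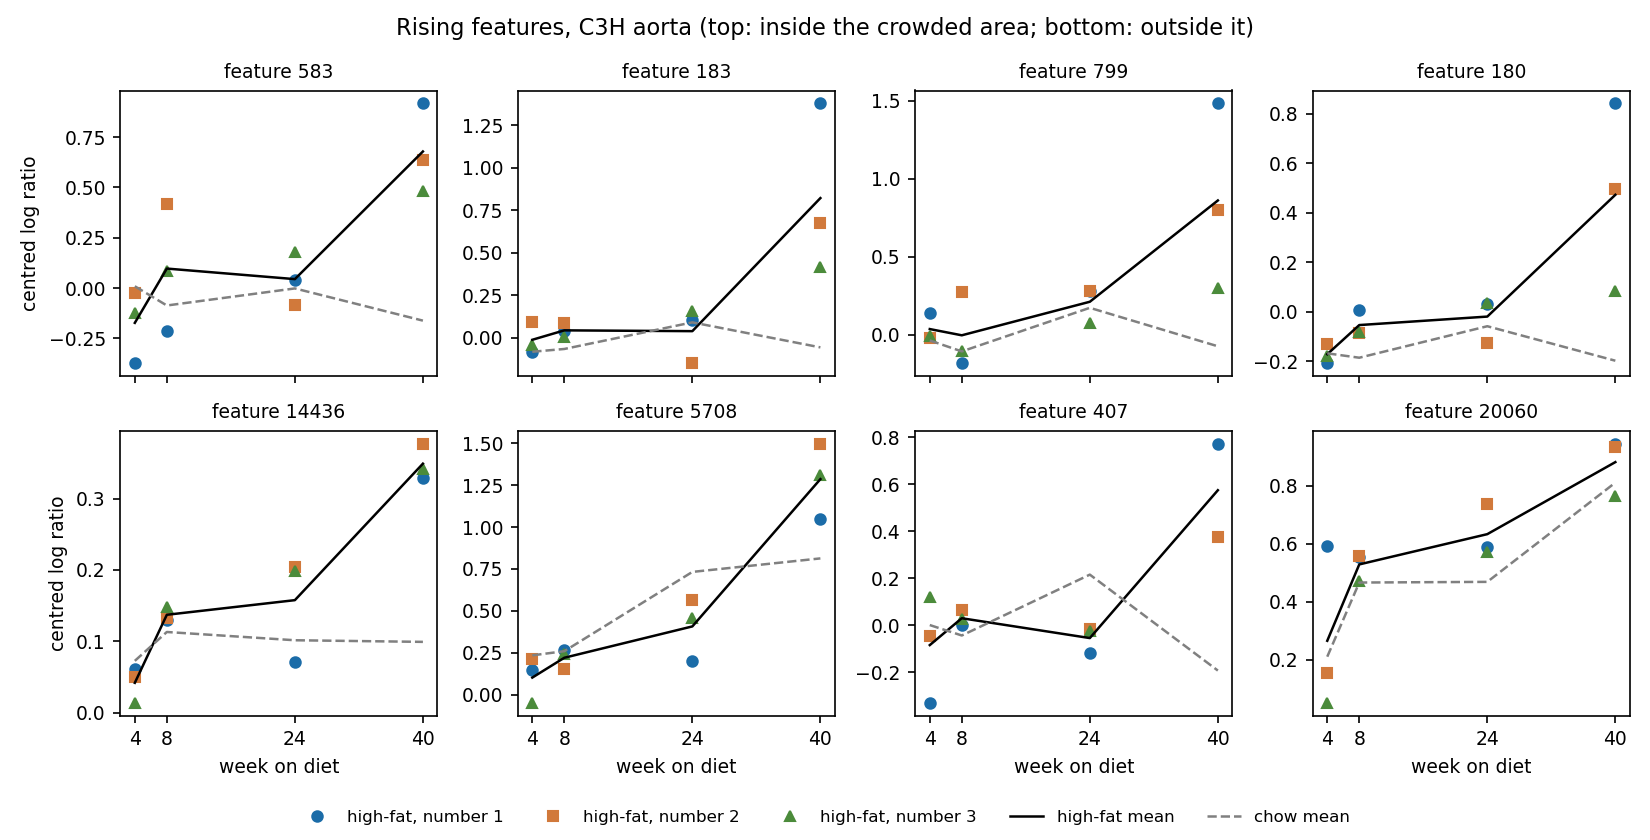
Centred log ratio against week on diet for 8 features that were higher at week 40. Points are the high-fat C3H arrays by number, the solid line is their mean and the dashed line is the mean of the C3H chow arrays. In the top row (583, 183, 799 and 180) array 1 lies highest at week 40, and the chow mean differs by -0.17 to 0.026 between weeks 40 and 4. In the bottom row, 14436 has its 3 week 40 arrays together, 20060 is higher at week 40 on both diets with the block, 5708 has a chow difference of 0.58 that did not pass, and 407 has 2 measured arrays at week 40. In the layout described below, 407 is at line 2 and position 192, close to the crowded area, which ends at position 187.

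Over all 16 features called higher, the median difference between week 40 and week 4 arrays of equal number was 0.85 for number 1, 0.56 for number 2 and 0.20 for number 3, where 14 of 16 were positive. Over all tested features the 3 pairs had medians of -0.00066, -0.013 and 0.0033. Pairs 1, 2 and 3 held 744, 688 and 118 features over 0.3, and 315, 634 and 388 under -0.3, so pair 3 had fewer large rises than either other pair and more large falls than pair 1. Leaving out week 40 array 3 raised the number of called features to 574. It fell to 3 without week 40 array 1, 8 without week 40 array 2, 1 without week 4 array 1 and 1 without week 4 array 2, and was 14 without week 4 array 3. Without week 40 array 1, features 14436 and 1087 were 2 of the 3 that passed.

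The features called higher were also crowded by position. Numbers 1 to 2239 hold 10.0% of the tested features, and 10 of the 16 features called higher and 55 of the 102 called higher with the block. The 82 features called lower with the block had 8 there. Within the low numbers, the 71 block-called higher features with numbers up to 4493 returned at a regular step. Their numbers bunched most at a period of 215, with a mean vector length of 0.862 on a scale from 0 to 1, and nearly as much at 214. The highest feature number, 22575, equals 105 lines of 215. The array layout is not given in the sources used here, so lines of 215 are a reading of the numbers, chosen after their values were seen. Laid out that way, the crowded features fell in a block at lines 1 to 24 and positions 134 to 187, an area set from their own 5th to 95th percentiles with a margin of 5 on each open side. It holds 5.81% of the tested features (1231), and 15 of the 16 features called higher, 68 of the 102 called higher with the block, and 2 of the 82 called lower with the block. Because these features drew the outline, their share in it is a description.

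**Figure D2:**
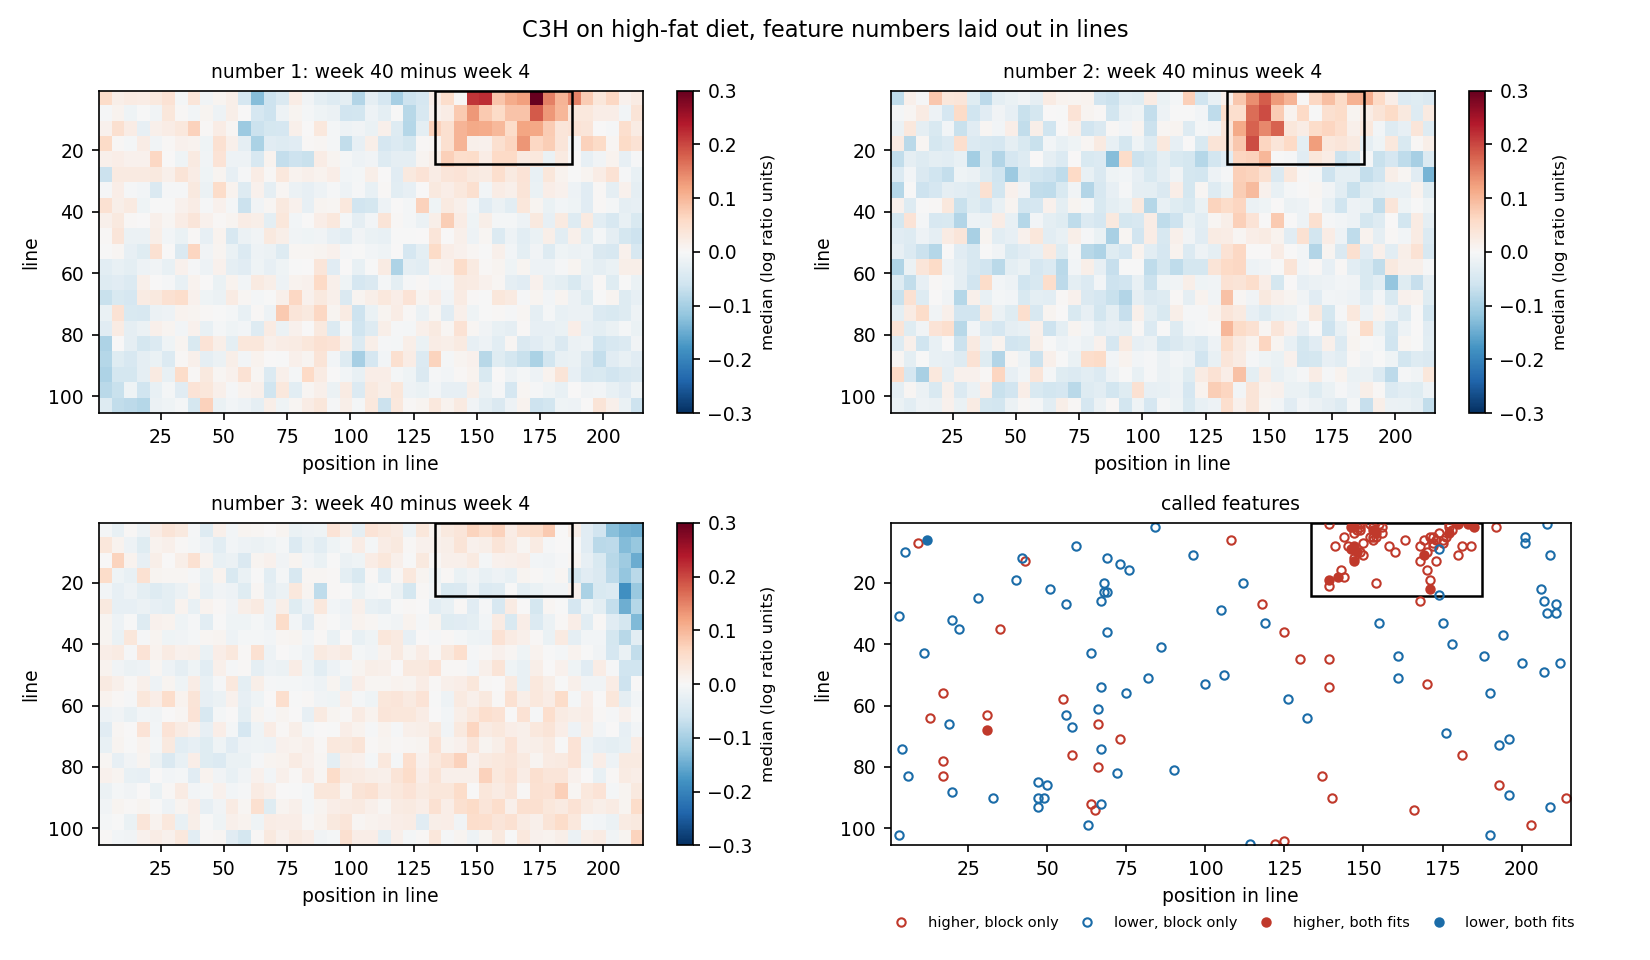
Feature numbers laid out in lines of 215, with the difference between week 40 and week 4 for arrays numbered 1, 2 and 3 (median of each 5 by 5 block, colour in log ratio units) and, in the last panel, the called features. The black outline marks lines 1 to 24 and positions 134 to 187, where arrays 1 and 2 are raised and array 3 is not. Features 14436 (line 68) and 1087 (line 6, position 12) lie outside it.

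Most of the 1231 features in this area were not called, and the median of all 1231 was raised on 2 arrays. The values below include the called features that drew the outline. A higher level on these arrays therefore follows in part from the outline, and uncalled features were not taken alone. The median log ratio of the 1231 was 0.0861 on week 40 array 1, 0.104 on array 2 and -0.00040 on array 3. The remaining features of the same lines had medians of -0.015, 0.0053 and -0.0073. On week 40 arrays 1 and 2, 11.5% and 12.8% of the area's features stood more than 0.3 above their mean over the series. Week 40 array 3 had 1.30%. No array of the series other than week 40 arrays 1 and 2 had more than 4.79%, the value of C3H high-fat week 24 array 1. Between weeks 40 and 4, the 95th percentile of the difference was 0.56 inside against 0.22 outside for number 1, 0.44 against 0.23 for number 2, and 0.18 against 0.15 for number 3. On chow it was 0.10 inside and 0.11 outside. The part of this position in the rise was not tested, and the cause of the shift was not tested. With the area left out, a loss that follows in part from how the area was drawn, 2 features passed without the block, 14436 and 1087, and 40 with it, 11 higher and 29 lower. With each value centred on the median of its 11 by 11 neighbourhood, 4 passed without the block (583, 4686, 14436 and 1087) and 174 with it, 75 higher and 99 lower.

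Outside the area, 34 features were called higher with the block, at a median difference of 0.22. Their 3 pairs had medians of 0.25, 0.26 and 0.15, against 0.51, 0.34 and 0.15 for the 68 inside. Both sets were selected by the outline and by the block fit, which favours differences that agree across the pairs. How near the pair medians lie to each other therefore follows in part from the selection. The following were chosen after their values were seen. Feature 5708 had the largest difference of all tested features, with 1.05, 1.4975 and 1.31 at week 40 and 0.14, 0.21 and -0.049 at week 4. The groups were far apart, and the difference of 1.18 (SE 0.268) had a limma adjusted p of 0.0599, or 0.0265 with the block. On high-fat diet it averaged 0.10, 0.22, 0.41 and 1.29 at weeks 4, 8, 24 and 40. On chow it had 0.76, 0.88 and 0.80 at week 40 and 0.038, 0.051 and 0.61 at week 4, a difference of 0.58 that did not pass. In C57 on high-fat diet it had 1.59, 1.77 and 2.0003 at week 40 and 0.10, 1.24 and 0.10 at week 4, where week 40 array 3 is at the cap of the deposited values. The difference of 1.30 is therefore a lower bound, and as fitted it had a limma adjusted p of 0.0249.

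Feature 20060 had 0.95, 0.93 and 0.77 at week 40 and 0.59, 0.15 and 0.052 at week 4, a difference of 0.62 (limma adjusted p = 0.213, with the block 0.0296). It did the same on chow, with 0.83, 0.86 and 0.75 at week 40 and 0.22, 0.26 and 0.15 at week 4, a difference of 0.60 that passed with the block (adjusted p = 0.0371). Feature 9599 had 0.49, 0.51 and 0.11 at week 40 and -0.10, 0.024 and -0.047 at week 4, a difference of 0.41 that passed with the block (adjusted p = 0.0323), while on chow its difference was -0.057. Features 11842 and 7345 were higher by 0.53 and 0.43 with the block (adjusted p = 0.0126 and 0.0425). Both were also higher with the block in C57 on the same diet, by 0.77 and 0.57 (adjusted p = 7.45e-05 and 0.00338).

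By size alone, 246 features differed by more than 0.3 between week 40 and week 4 on high-fat diet (1.16%) and 208 by less than -0.3 (0.982%). On chow the counts were 29 (0.137%) and 143 (0.675%), and in C57 on high-fat diet 135 (0.637%) and 139 (0.656%). In the crowded area lay 87 of the 246, against 1 of the 29 and 12 of the 135. Its outline was drawn from calls of the difference behind the 246, so the excess there follows in part from the outline. The large falls sat together: 154 of the 208 had numbers between 4508 and 6125, and 152 of these 154 lay in 5 lines of 215. Their differences had a median of -0.40 and ran from -0.75 to -0.30, yet 0 of the 154 were called and 1, feature 6125, passed with the block. Feature 5708 has a number in the same range. Their median log ratios were -0.85, -0.55 and -0.89 on week 40 arrays 1 to 3 and -0.79, -0.078 and -0.15 on the week 4 arrays. Week 4 array 1 was thus as low as the week 40 arrays, and week 4 arrays 2 and 3 were the high ones. On chow the medians were -0.82, -0.90 and -0.97 at week 40 and -0.19, -0.86 and -0.83 at week 4, with week 4 array 1 alone high. In C57 on high-fat diet they were -0.098, -1.11 and -1.01 at week 40 and -0.69, -1.21 and -0.91 at week 4, where the high array was one of week 40. These features thus moved between a low and a high level from array to array in each of the 3 comparisons. The platform annotation lists 3 of the 154, against 80.6% of the features in the table, and what kind of feature they are was not tested.

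**Figure D3:**
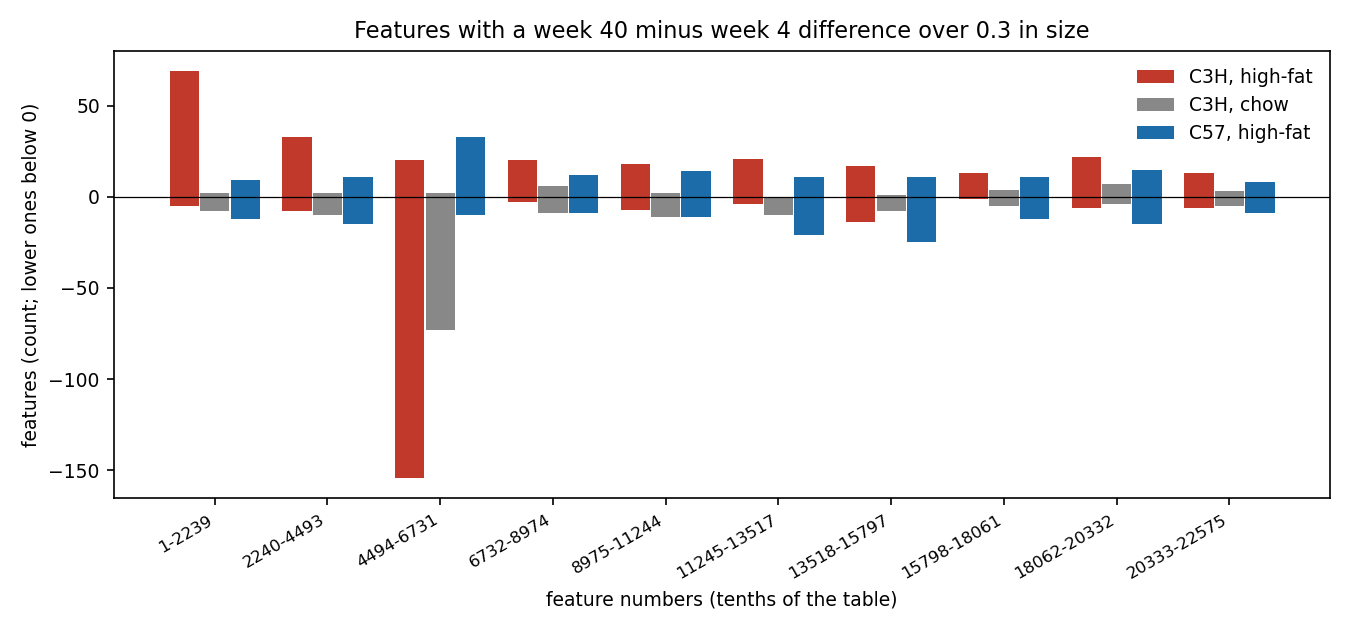
Number of features with a difference between week 40 and week 4 over 0.3 (bars above 0) or under -0.3 (bars below 0) in each of 10 equal ranges of the feature numbers, for C3H on high-fat diet, C3H on chow and C57 on high-fat diet. The C3H high-fat arrays have 69 features over 0.3 in the lowest range, against 2 on chow and 9 in C57, and 154 under -0.3 in the range 4494 to 6731, against 73 on chow and 10 in C57.

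The falling features were spread along the numbers. The 82 called lower with the block had a median difference of -0.19, with pair medians of -0.19, -0.23 and -0.17. The block fit selects differences that agree across the pairs, so the likeness of these medians follows in part from the selection. Among these 82, the change was also followed over the weeks. Their medians relative to week 4 were -0.14 at week 8 and -0.12 at week 24, comparisons that share the week 4 arrays with the one that chose them. The median between weeks 8 and 24, which shares no array with it, was -0.0018, with 40 of 82 positive, against 0.0025 and 51.6% over all tested features. Features 6125, 5646 and 21905 came next after 1087 without the block and did not pass there, at differences of -0.33, -0.26 and -0.26 (limma adjusted p of 0.0571, 0.0752 and 0.0752). With the block they passed, at 0.0137, 0.00398 and 0.0242.

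The 4 largest falls among the remaining block calls, chosen after their values were seen, had 2 courses. Feature 4153 had -0.35, -0.27 and -0.62 at week 40 and 0.20, 0.18 and -0.015 at week 4, and feature 2868 had 0.39, 0.46 and -0.0083 at week 40 and 0.87, 0.80 and 0.52 at week 4. Both stood at the week 40 level by week 8, with means at weeks 4, 8, 24 and 40 of 0.12, -0.38, -0.33 and -0.41 for feature 4153. For feature 2868 these means were 0.73, 0.33, 0.29 and 0.28. Features 3910 and 15673 fell later, mostly between weeks 8 and 24, with week 40 values of -0.91, -0.91 and -1.28 against week 4 values of -0.33, -0.078 and -0.66 for feature 3910, and means of -0.54 and -0.9971 at weeks 8 and 24. Feature 15673 had -0.61, -0.46 and -0.56 at week 40 and 0.14, 0.28 and -0.081 at week 4, and its means at weeks 8 and 24 were -0.046 and -0.53. With the block, the differences of 4153 and 2868 were -0.53 and -0.45 (adjusted p = 0.000153 for both), and those of 3910 and 15673 were -0.68 and -0.66 (adjusted p = 0.0418 and 0.0438). None of the 4 passed without the block.

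**Figure D4:**
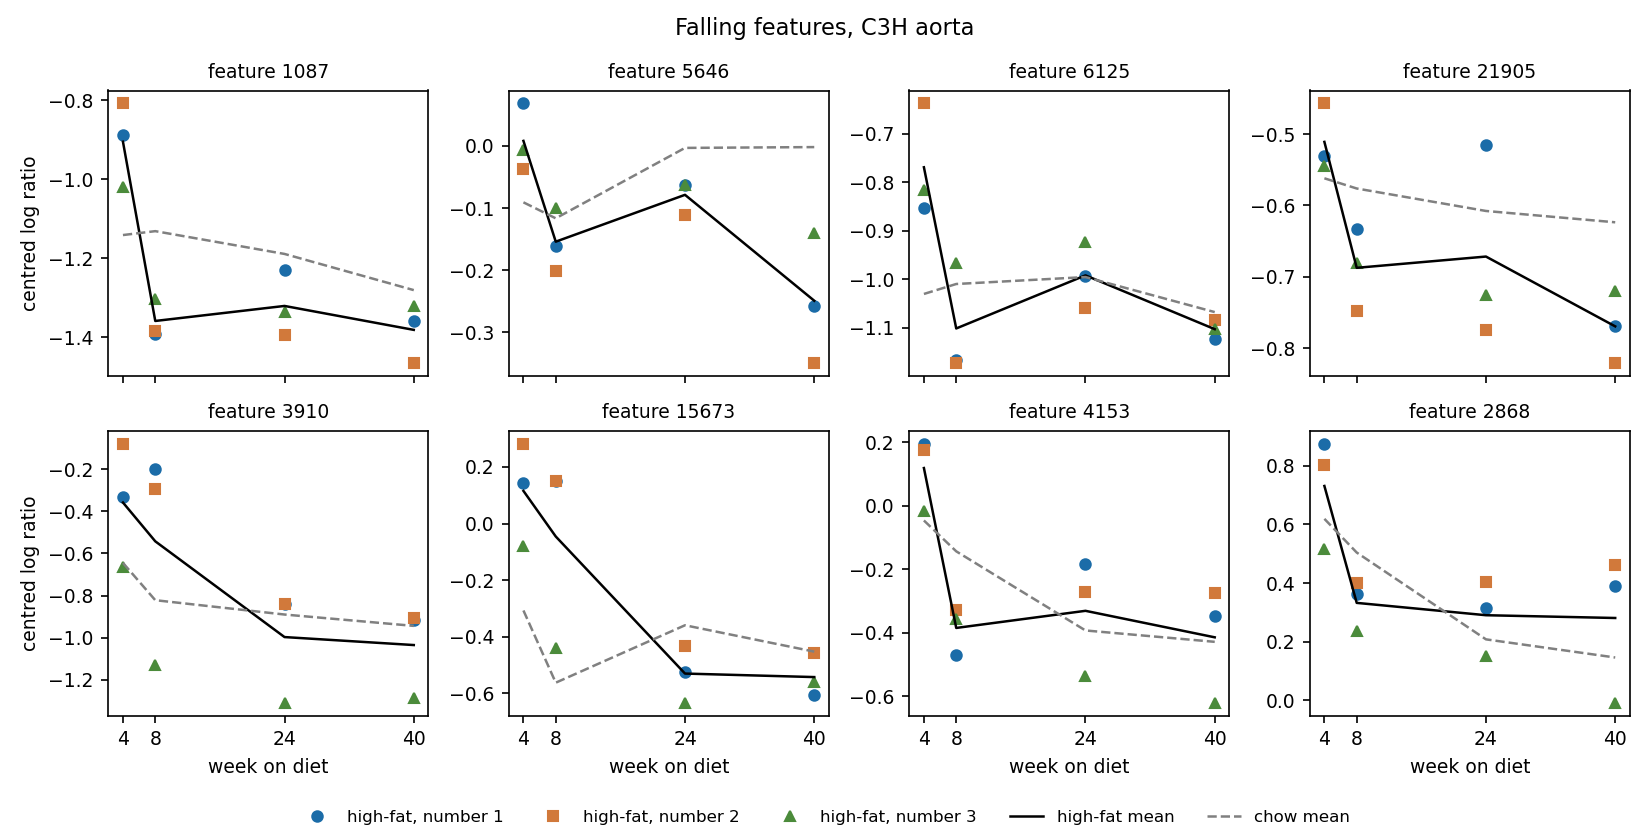
Centred log ratio against week on diet for 8 features that were lower at week 40, drawn as in the plot of rising features. Feature 1087 drops by week 8 and stays there on high-fat diet, while its chow mean is already low at week 4. Features 5646, 6125 and 21905 did not pass without the block, and the bottom row shows 3910, 15673, 4153 and 2868, where 4153 and 2868 are low from week 8 on.

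Any change over weeks 4, 8, 24 and 40 was called for 44 features by limma's F test (0.208%), and for 1227 with the block (5.79%). Counted by the sign of their week 40 minus week 4 difference, 32 of the 44 were higher (0.151%) and 12 lower (0.0567%), or 594 (2.80%) and 633 (2.99%) with the block. With the arrays scaled to one spread or quantile normalization 0 features passed limma's F test, with 1230 and 1366 at an unadjusted p under 0.05, or 57 and 148 passed with the block. Week 40 was the week farthest from the other 3 in 22 of the 44, always on the higher side. Over all tested features week 40 was farthest in 29.3%. In the crowded area lay 17 of these 22, which follows in part from its outline, drawn from week 40 minus week 4 calls. Week 8 was farthest in 16 of the 44, 7 higher and 9 lower, of which 1 lay in the area, against 32.4% of all tested features with week 8 farthest. Feature 10380 had 0.40, 0.36 and 0.28 at week 8, and in no other week did an array exceed 0.048 (limma adjusted p of the F test = 0.00686). On chow at week 8 it averaged 0.045. Features 10555, 12504 and 16960 went the other way. Feature 10555 averaged 1.05, 0.68, 0.77 and 1.08 at weeks 4, 8, 24 and 40, feature 12504 0.92, 0.53, 0.73 and 0.92, and feature 16960 0.73, 0.47, 0.59 and 0.71 (adjusted p = 0.0355 each). All 3 were lowest at week 8 and stood near their week 4 level at week 40, so the difference between weeks 40 and 4 does not show them.

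A linear trend over the 4 weeks was called for 30 features (0.142%), 29 rising (0.137%), and with the block for 216 (1.02%), 144 rising (0.680%) and 72 falling (0.340%). Of the 29 rising ones, 15 are also among the 16 higher at week 40, with which the test shares arrays. In the crowded area lay 24 of the 29, which follows in part from its outline, drawn from calls on arrays the trend shares. With the arrays scaled to one spread 0 features had a trend called by limma, with 533 at an unadjusted p under 0.05 (13 called with the block), and with quantile normalization 7 had one (29 with the block). Features 1299 and 16183 were rising trends outside it. Feature 1299 averaged 0.23, 0.19, 0.37 and 0.49 at weeks 4, 8, 24 and 40, a fitted rise of 0.29 over 36 weeks (limma adjusted p = 0.00933). Its chow means rose as well, at 0.078, 0.19, 0.31, 0.30 and 0.38 at weeks 0, 4, 8, 24 and 40. Feature 16183 averaged 0.095, 0.083, 0.29 and 0.44 (fitted rise 0.37, adjusted p = 0.00933), with arrays at week 40 of 0.53, 0.21 and 0.57. Features 1238 and 3797, inside the area, had fitted rises of 0.19 and 0.38 at the same adjusted p.

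Whether the same span of time without the diet gave the same changes was asked of the C3H chow arrays. Their group means share no array with the high-fat comparison, but both tests used a spread pooled over all 54 arrays. Between weeks 40 and 4 on chow, 11 features passed (0.0519%), of which 3 (0.0142%) were higher and 8 (0.0378%) lower, and none is among the 17 in the same direction. With the block, 126 were called on chow (0.595%), 26 higher (0.123%) and 100 lower (0.472%). With the block 14 features were lower on both diets, which is 17.1% of the 82 on high-fat diet and 14% of the 100 on chow. For the rising calls 2 features were shared, 1.96% of 102 and 7.69% of 26. Among the 82 falling features 59 were negative on chow, at a median of -0.034, against a median of -0.0027 over all tested features. Feature 2868 fell on chow by 0.47 (block adjusted p = 2.55e-05), with 0.27, 0.20 and -0.035 at week 40 and 0.61, 0.74 and 0.51 at week 4, and feature 4153 by 0.38 (block adjusted p = 0.00581). Of the 16 features called higher on high-fat diet, 5 were positive on chow, with a median of -0.021. Outside the crowded area, 25 of the 34 block-called rising features were positive on chow, with a median of 0.041, and inside it 24 of 68, with a median of -0.020. Over all tested features 48.0% were positive on chow.

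A direct test of the high-fat change minus the chow change in C3H called 0 features in limma, with 925 at an unadjusted p under 0.05. With the block it called 4 (0.0189%), 2 higher (0.00944%) and 2 lower (0.00944%). Feature 583 was higher by 1.02 in this test (block adjusted p = 0.0331), with chow arrays of -0.21, -0.18 and -0.097 at week 40 and -0.032, 0.22 and -0.16 at week 4, and it lies in the crowded area. Feature 13324 was higher by 0.40 (block adjusted p = 0.00943), a test that rests on chow, where it changed by -0.38, against 0.016 on high-fat diet. Feature 5646 was lower by 0.35 (block adjusted p = 0.0331), at -0.26 on high-fat diet and 0.089 on chow. Feature 21456 was lower by 0.36 (block adjusted p = 0.0331), at -0.16 on high-fat diet and 0.20 on chow.

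A list drawn from a contrast of chow arrays was followed on high-fat diet. Its group means share no array with the high-fat comparison, but both tests used a spread pooled over all 54 arrays. A small spread favours a call in both, so calls shared by the list and the high-fat test are not independent. The chow arrays of week 40 differed from those of week 0 in 21 features (0.0992%), of which 16 were lower and 5 higher at week 40. On high-fat diet, between weeks 40 and 4, 15 of the 16 lower ones were negative, at a median of -0.24, against 52.8% negative and a median of -0.0047 over all tested features. Of the 5 higher ones 4 were positive. With the block 9 of the 16 and 2 of the 5 were called on high-fat diet, and without it 1087 alone. By smallest p on chow the list opens with features 6247, 22474, 12276, 17636, 1087 and 8430. Feature 22474 had 0.30, 0.23 and 0.099 at week 40 and 0.56, 0.43 and 0.44 at week 4 on high-fat diet, a difference of -0.27 that passed with the block (adjusted p = 0.00981) and not without it (0.126). On chow it averaged 0.66, 0.42, 0.34, 0.19 and 0.17 at weeks 0, 4, 8, 24 and 40. Feature 17636 fell by 0.26 with the block (adjusted p = 0.0353), while 6247, 12276 and 8430 had differences of -0.061, -0.14 and -0.039 and did not pass in either fit.

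**Figure D5:**
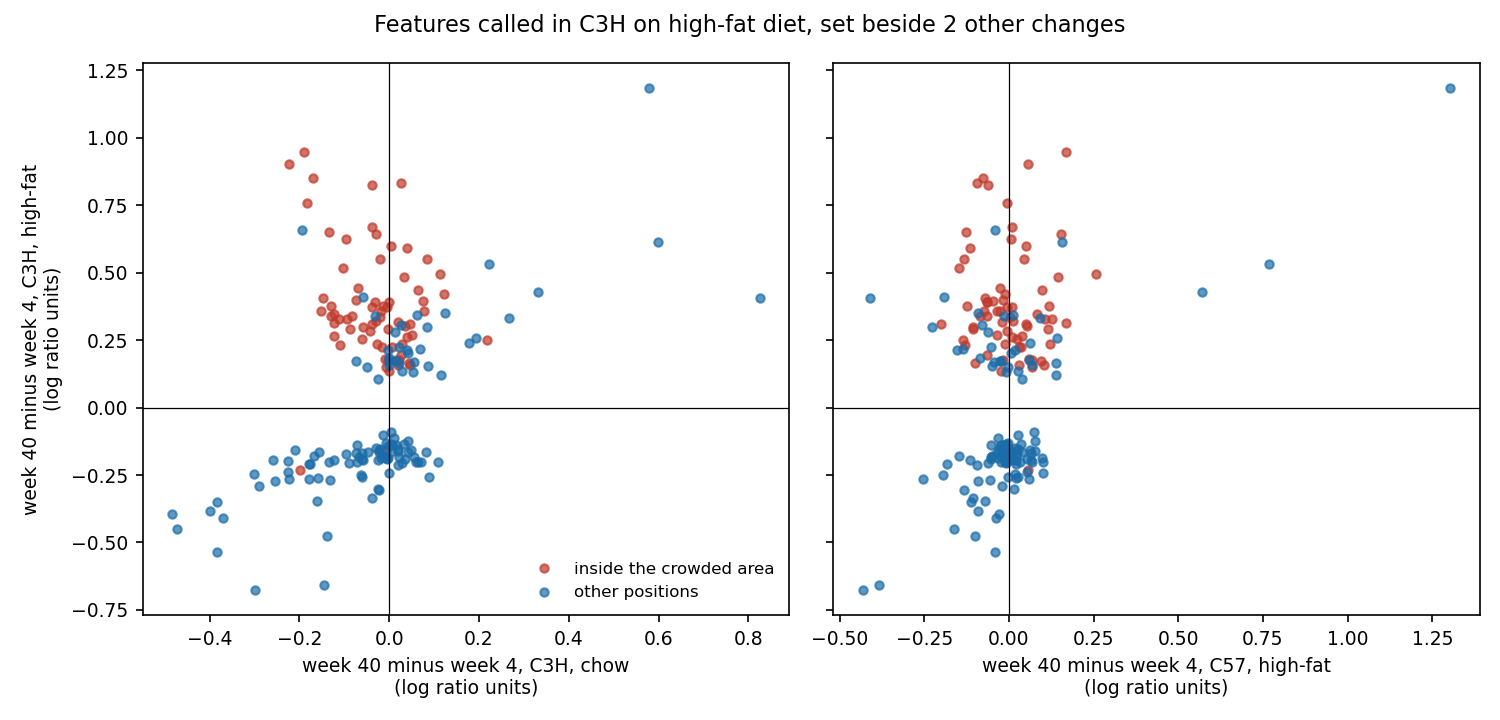
Difference between week 40 and week 4 in C3H on high-fat diet (vertical) against the difference in C3H on chow (left) and in C57 on high-fat diet (right), in log ratio units, for the 184 features called with the block. Red points lie in the crowded area, and 24 of the 68 higher ones are positive on chow. Of the 82 lower features, 59 are also negative on chow, and feature 5708 is at the upper right of both panels.

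Set against the susceptible strain on the same diet, the high-fat change in C3H minus that in C57 was called for 1 feature (0.00472%), which was lower, and with the block for 91 (0.430%), 51 higher (0.241%) and 40 lower (0.189%). In C57 on this diet 28 features were called between weeks 40 and 4 (0.132%), or 315 with the block (1.49%), 266 of them higher (1.26%) and 49 lower (0.231%). The feature called without the block was 1643, at line 8 and position 138, inside the crowded area. In C3H on high-fat diet it had 0.19, 0.33 and 0.14 at week 40 and 0.38, 0.30 and 0.31 at week 4, and in C57 0.30, 0.39 and 0.31 at week 40 and -0.024, -0.076 and -0.055 at week 4. The C3H arrays of the 2 weeks overlapped and the C57 arrays were far apart. The changes were -0.11 in C3H and 0.39 in C57, which differed by -0.49 (SE 0.087, limma adjusted p = 0.0307). No feature passed without C3H week 40 array 1, C57 week 40 array 1 or 2, or C57 week 4 array 2 or 3 (1305 to 1815 at an unadjusted p under 0.05 in limma), while 473 passed without C3H week 40 array 3 and 178 without C57 week 40 array 3. On chow the C3H change was -0.34 (limma adjusted p = 0.0168). With the block, feature 14436 followed, higher in C3H by 0.39 (adjusted p = 0.00342; 0.0733 without it). Features 17767, 10527 and 6453 came next with the block, at 0.82, -0.30 and -0.29 (adjusted p of 0.00616, 0.00943 and 0.0103). Feature 17767 changed by 0.41 in C3H and -0.41 in C57 on high-fat diet, and by more, 0.83, in C3H on chow. The C3H chow changes of features 10527 and 6453 were -0.073 and -0.018, against -0.20 and -0.19 on high-fat diet. Of the 51 higher ones, 17 lay in the crowded area, whose outline was drawn from C3H calls on arrays that this test shares. Of the 16 features called higher in C3H, 4 were positive in C57, at a median of -0.063, and 0 were called there. Over all tested features 53.9% were positive in C57, at a median of 0.0066. With the arrays scaled to one spread 3 features passed, all lower, and with quantile normalization 1 higher and 1 lower.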

How the data were processed

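Two-colour arrays measured total RNA of mouse aorta against total RNA of mouse embryo in 54 samples, 18 groups of 3. The deposited table holds 1 log ratio per feature and array, likely log10, as the authors normalized it; no source used here gives its base, its direction or the steps before it. Precision is limited by the 3 arrays in each group. Exact zeros (7895 values, 0.682%) were taken as not measured, each array was centred on its median over 20694 features measured on every array, and 21179 of 21446 features with at least 2 measured values in every group were tested. Group means of all 54 arrays entered a linear model in limma (version 3.58.1, R version 4.3.3) without a block, with Benjamini-Hochberg adjustment over the 21179 features and a threshold of 0.05. The script was tested on simulated data. The SDs given are between arrays of a group.

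The titles number the arrays 1 to 3 in each group. In C3H on high-fat diet, deviations from the group mean correlated between weeks 40 and 4 at 0.385 to 0.685 for arrays of equal number. For arrays of unequal number the correlation was -0.542 to 0.148. The numbers were therefore taken to pair the samples. The fit with the number as a block is given beside the main counts and for a part of the named features. No source used here says what the number stands for.

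The annotation lists 17284 features, 17268 with 1 symbol and 16 with several or none, and leaves 4162 unnamed. It was not used for names, so gene lists and tissue markers were not tested. Named features were the called ones with the same sign in every pair, up to 12 in each direction by size, filled to 4 by smallest p, and up to 4 by smallest p from each other test. Other features are described as chosen after their values were seen. The lines of 215, the crowded area and the fits that use them were also chosen after seeing the data, and the comparison and its lists were chosen with earlier results of these data known.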

Additional observations from a re-analysis of the deposited data

Results flagged for a closer look

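Feature 1643 differed in its change between week 40 and week 4 on high-fat diet between the strains, by -0.49 (C3H minus C57, limma adjusted p = 0.0307 by the interaction test, with the replicate block 0.000664). The change was -0.11 in C3H and 0.39 in C57, and on chow in C3H it was -0.34. It was called in C57 (limma adjusted p = 0.00291) and not in C3H on high-fat diet (0.731). The strain test called 0 features without C3H week 40 array 1, C57 week 40 array 1 or 2, or C57 week 4 array 2 or 3 (1305 to 1815 at an unadjusted p under 0.05 in limma), and when fitted to its own 12 arrays alone (901). Groups of 3 arrays are too small for a test of single stray arrays, so none was made.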

How the results depend on the processing

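Counts are given in the order week 40 minus week 4 (17), any change over the weeks (44), trend (30), chow (11), high-fat minus chow change (0) and C3H minus C57 change (1). With the replicate block they were 184, 1227, 216, 126, 4 and 91. The replicate block with local centring along the feature number gave 174, 1286, 181, 137, 4 and 98. Arrays numbered 1 and 2 alone gave 298, 1279, 208, 11, 21 and 553, and the series as a random block, at an estimated correlation of 0.461, gave 356, 1280, 254, 106, 11 and 477. Only the arrays of each contrast gave 0, 3, 1, 0, 0 and 0, where the 0 for week 40 minus week 4 had 771 features at an unadjusted p under 0.05, with fewer arrays to estimate the spread. Quantile normalization gave 5, 0, 7, 18, 0 and 2, and arrays scaled to one spread gave 1, 0, 0, 12, 0 and 3. Local centring along the number gave 14, 20, 30, 7, 0 and 1. Without numbers 1 to 2239 the counts were 1, 1, 4, 9, 0 and 0. The following were chosen after seeing the data. The replicate block gave 10, 57, 13, 94, 1 and 19 with scaled arrays, 19, 148, 29, 109, 1 and 13 with quantile normalization, and 78, 940, 64, 117, 3 and 69 without numbers 1 to 2239. Local centring on the grid gave 4, 18, 8, 9, 0 and 3, and with the block 174, 1247, 128, 131, 5 and 117. Without the crowded area the counts were 2, 9, 3, 10, 0 and 0, and with the block 40, 856, 48, 118, 3 and 44. The cause of these moves was not tested. Leaving out 1 array in turn gave 1 to 574 features for week 40 minus week 4, 24 to 1632 with the block (189, 43 and 92 without week 4 array 1, 2 or 3), 2 to 369 for any change, 7 to 206 for the trend, 0 to 12 on chow, 0 to 41 for high-fat minus chow and 0 to 473 for C3H minus C57. For 5 of these 6 counts, all but chow, the highest came without week 40 array 3. No centring, zeros kept as measured and features measured on every array alone gave 17, 18 and 15 for week 40 minus week 4. No difference of a named feature changed sign where it was called. With 3 arrays a group, the array number limits what can be seen, and signal over background is not in the values used here.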
